A study of Mus musculus with 20 samples.

Results

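10 genes used as markers of astrocytes were followed in whole-brain RNA from Katnal2-KO and WT mice at 3 and 10 weeks of age. They are Slc1a2, Slc1a3, Glul, Gja1, Gjb6, Aqp4, Gfap, S100b, Aldh1l1 and Aldoc. The genes were taken by name from the roles they serve in astrocytes, and no rule used their values. Earlier results of these data were known when they were chosen. Each gene was found by its Ensembl ID among the 19463 genes of the table. On GRCm38, Slc1a2 lies at chr2:102658659-102790784, Slc1a3 at chr15:8634124-8710764 and Glul at chr1:153899944-153909723. The channel genes are Gja1 at chr10:56377330-56402513 and Gjb6 at chr14:57123303-57133611, and Aqp4 on chromosome 18. Gfap is at chr11:102887336-102900912, S100b at chr10:76253853-76261159, Aldh1l1 at chr6:90486427-90600203 and Aldoc at chr11:78322968-78327781. All are protein-coding and were quantified over all their transcripts. All 10 were detected in all 20 mice and passed the filter on low values (a mean of at least 10 normalized counts in the mice compared).

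Astrocytes are glial cells that tile the brain and contact synapses, blood vessels and one another. They take up the glutamate that neurons release through the transporters GLT-1 (Slc1a2) and GLAST (Slc1a3) and turn it into glutamine with glutamine synthetase (Glul). Gap junctions made of connexin 43 (Gja1) and connexin 30 (Gjb6) join them into networks, and their endfeet on vessels are rich in the water channel aquaporin 4 (Aqp4). Gfap is the intermediate filament protein that increases in reactive astrocytes, S100b is a calcium-binding protein, Aldh1l1 is an enzyme of folate metabolism and Aldoc is the brain form of the glycolytic enzyme aldolase. Several of them are also made by other cells: ependymal cells and radial glia express Aqp4, Gja1, Gfap or S100b, and oligodendrocytes express S100b and Glul.

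The mice were males of the C57BL/6J strain, with 5 per group in 4 groups: KO and WT at 3 weeks (postnatal day 21) and at 10 weeks (postnatal day 70). KO mice descended from the EUCOMM allele Katnal2 tm1a(EUCOMM)Wtsi. Crossing to Protamine-Flp mice had made the allele floxed, and embryos at an early cleavage stage had been exposed to HTNC, a Cre recombinase that enters cells, so the deletion of exon 3 was in all tissues and not in astrocytes alone. Katnal2, a relative of the microtubule-severing protein katanin, was measured first as a check of the labels. It had 89.0 ± 8.72 normalized counts in KO and 107 ± 7.38 in WT mice at 3 weeks, and 105 ± 11.8 and 122 ± 16.4 at 10 weeks (mean ± SD, n = 5 each). No KO mouse reached a WT mouse at 3 weeks and the groups overlapped at 10 weeks, and a transcript without exon 3 would still be counted. Each mouse was an animal of its own, and mice that share a replicate number were different animals. Per-mouse sums were 27310523 to 28423042 after the authors' normalization, and the spacing of low values gave roughly 22800000 to 37800000 reads per mouse. By group these reads were 26100000 to 37800000 (KO) and 26400000 to 36800000 (WT) at 3 weeks. At 10 weeks they were 22800000 to 25800000 and 24700000 to 26300000. The lowest value of any of the 10 genes in any mouse was that of Gjb6 in a 10-week KO mouse, at 1318 normalized counts.

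Before the groups are compared, 4 libraries have to be set apart. In the 10-week replicate 5 mice of both genotypes, 75.9% (KO) and 70.5% (WT) of genes lay outside the range of the other 4 mice of the group, against 24.5% to 38.3% for the other 10-week mice. The 3-week replicate 3 mice had 59.6% (KO) and 55.5% (WT), against 27.6% to 45.9% for the other 3-week mice. These values moved with transcript length. The median log2 deviation of the longest length quintile of transcripts minus that of the shortest quintile was -0.680 in the KO and -0.584 in the WT mouse of 10 weeks, and -0.292 and -0.339 in those of 3 weeks, while the other mice went up to 0.276. Why these libraries differ was not tested.

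The marker genes split in those 10-week mice. Aqp4, whose principal transcript has 5054 bases, was at 45.2% of the mean of the other 4 mice in KO replicate 5 and at 57.4% in WT replicate 5. Slc1a2, the longest at 11595 bases, was at 60.6% and 75.8%. Gja1 and Slc1a3 were also below all other mice of their group in both. Aldoc went the other way, at 143% and 142%, as did Aldh1l1 at 139% in both and S100b at 124% and 123%. Length did not order the genes strictly, since Aldh1l1 (4175 bases) and Slc1a3 (4163 bases) are alike in length and moved in opposite directions. Comparisons of the 10 genes with 10-week mice are therefore given with all mice and without replicate 5 of both genotypes.

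**Figure D1:**
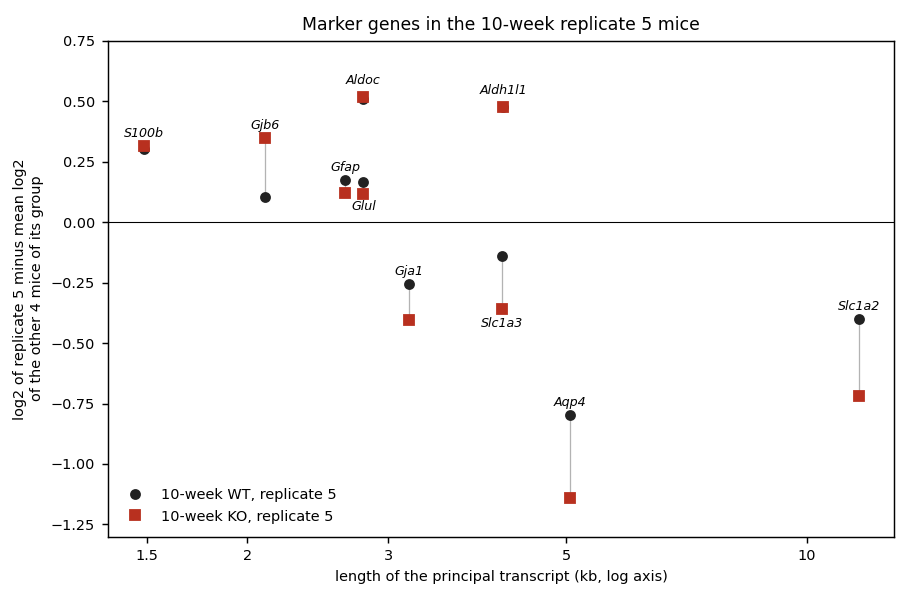
Each marker gene in the 10-week replicate 5 mice: the log2 value minus the mean log2 value of the other 4 mice of the group (vertical axis) against the length of the principal transcript in kb (horizontal log axis), with WT as circles and KO as squares. Slc1a2, Slc1a3, Gja1 and Aqp4 lie below 0 in both mice, with Aqp4 lowest at -1.14 in KO, and the other 6 genes lie above 0.

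Levels were compared between genes per kb of the principal transcript. In all 4 groups the order of the means was Glul, Aldoc, Slc1a2, Slc1a3, S100b, Gfap, Gja1, Gjb6, Aqp4 and Aldh1l1. In WT mice at 3 weeks, Glul stood at 13234 ± 960 normalized counts per kb, Aldoc at 8049 ± 470.4, Slc1a2 at 4330 ± 361 and Aldh1l1 at 437 ± 28.3 (mean ± SD, n = 5). Over all 20 mice Glul was at the 99.7th percentile of genes on this scale and Aldh1l1 at the 76.3rd. Not every step of the order was larger than the spread between mice. The ranges of Slc1a2 and Slc1a3 overlapped in all 4 groups, those of S100b and Gfap at 3 weeks in both genotypes, and those of Gjb6 and Aqp4 in all groups but the 3-week KO mice. Gfap and Gja1 also overlapped in WT mice at 3 weeks, Slc1a3 and S100b in KO mice at 10 weeks, and Aqp4 and Aldh1l1 at 10 weeks in both genotypes. With all mice, the other neighbours had ranges apart. The 10-week ranges include replicate 5, the lowest mouse for Slc1a2, Slc1a3 and Aqp4 and the highest for S100b and Aldh1l1 in both genotypes. Without it, Slc1a2 had 5276 ± 346 normalized counts per kb in KO and 5206 ± 109 in WT mice (mean ± SD, n = 4). Slc1a3 had 3862 ± 177 and 3768 ± 241, Aqp4 859 ± 69.2 and 859 ± 61.5, and Aldh1l1 417 ± 26.2 and 398 ± 8.54. S100b had 2904 ± 272 in KO mice. With replicate 5 left out, the 10-week ranges of Slc1a2 and Slc1a3 and of Aqp4 and Aldh1l1 were apart in both genotypes. Those of Slc1a3 and S100b were apart in KO mice, and those of Gjb6 and Aqp4 still overlapped in both genotypes.

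**Figure D2:**
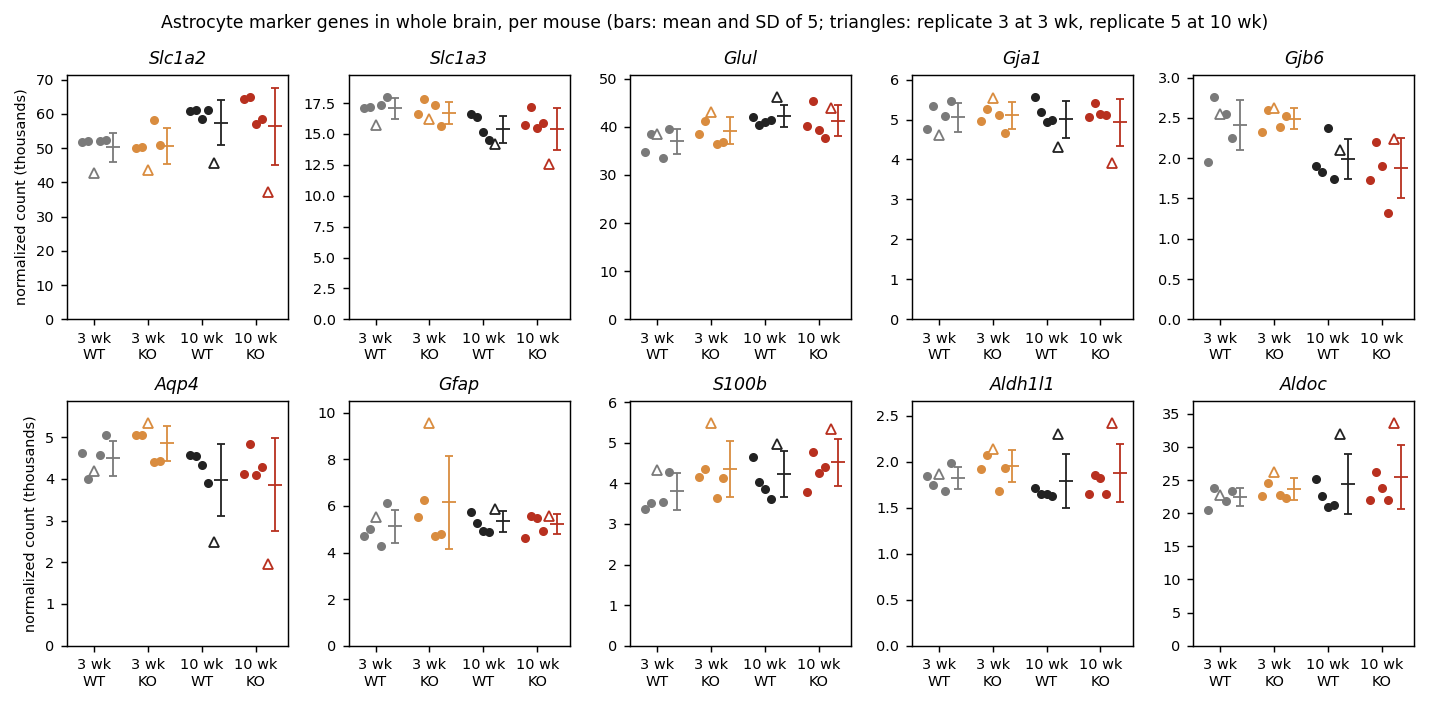
Normalized counts, divided by 1000 (vertical axis, starting at 0), of the 10 marker genes in each mouse, by group; bars are the mean and SD of 5 mice, and open triangles mark replicate 3 at 3 weeks and replicate 5 at 10 weeks. The 10-week triangles of Aqp4 stand for 1961 (KO) and 2494 (WT) normalized counts, under all other mice, and the 3-week KO triangle of Gfap for 9561, above all other mice.

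KO and WT mice at 3 weeks were compared to ask whether the deletion changes the level of astrocyte genes in the young brain. None of the 10 genes passed an adjusted p of 0.05, and 0 of 17610 genes did over the whole table (0.0%), while 429 genes (2.44%) and none of the 10 had an unadjusted p under 0.05. Of the 10 fold changes, 9 were above 0, with a median log2 fold change of 0.081 beside 0.0042 over all genes, of which 52.5% were above 0. The 10 values come from the same libraries. Leaving out the replicate 3 mice of both genotypes gave -0.046 for Gja1, -0.050 for Slc1a3, 0.0029 for Slc1a2 and 0.056 for Gjb6. Aqp4 was then at 0.053, Aldoc at 0.045, Glul at 0.068 and Aldh1l1 at 0.069. The KO and WT groups overlapped for 10 of the 10 genes, and 0.46% of all genes had groups that did not.

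The largest difference at 3 weeks was that of Gfap. In KO mice of replicates 1 to 5 it had 5514, 6241, 9561, 4718 and 4805 normalized counts. In WT mice it had 4710, 4995, 5507, 4280.3 and 6129.5. KO replicate 3 stood far above every other mouse, KO replicate 2 was a little above the highest WT mouse, and the remaining KO mice lay within the WT range. The means were 6168 ± 1994 and 5124 ± 717 (± SD, n = 5), a log2 fold change of 0.23 (95% confidence interval -0.13 to 0.58, adjusted p = 1.00 from limma). Without the replicate 3 mice of both genotypes it was 0.084 (standard error 0.11).

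S100b came next. It had 4152, 4364, 5487, 3633 and 4123 normalized counts in KO mice and 3368, 3518, 4319, 3548 and 4280.4 in WT mice. 3 of the 5 WT mice were below every KO mouse, and the other 2 lay within the KO range. The log2 fold change was 0.19 (-0.033 to 0.41), with the lowest unadjusted p among the 10 genes (limma p = 0.0889, exact two-sided permutation p = 0.19), and 0.15 (standard error 0.076) without the replicate 3 mice. The water channel Aqp4 differed by 0.11 (-0.044 to 0.27), and Glul, Aldh1l1 and Aldoc by 0.086, 0.094 and 0.077. The glutamate transporters and connexins were nearest to 0: Slc1a2 at 0.0075 (-0.16 to 0.17), Slc1a3 at -0.030 (-0.14 to 0.076), Gja1 at 0.016 (-0.11 to 0.14) and Gjb6 at 0.053 (-0.12 to 0.23). The intervals of those 4 genes and of Aqp4, Glul, Aldh1l1 and Aldoc ended below 0.3 on either side of 0. Those of Gfap and S100b did not.

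Cells that line the ventricles express some of these genes, and their markers had values above 0 at 3 weeks too. Of 12 ependymal markers tested, none passed, 11 were above 0 and the median was 0.18, with summed normalized counts of 1254 to 1669 in KO and 1108 to 1261 in WT mice. Of 10 choroid plexus markers none passed, 10 were above 0 and the median was 0.24, with sums of 27534 to 43345 and 25117 to 31284. At an unadjusted limma p under 0.05 there were 2 of the 12 ependymal and 4 of the 10 choroid plexus markers (2.44% of all genes). The highest KO sum of each list was that of replicate 3, and the other KO mice went up to 1324 and 39409. WT replicate 3 had the highest ependymal sum of the WT mice, and the others went up to 1237. No marker of either list was at 0 in any mouse. Their part in the Gfap, S100b and Aqp4 values was not tested.

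At 10 weeks the fold changes of KO over WT lay within a narrower range. None of the 10 passed the test, with 0 of 17613 genes called (0.0%) and 199 genes (1.13%), none of the 10 among them, at an unadjusted p under 0.05. The log2 fold changes ran from -0.099 (Gjb6) to 0.095 (S100b), 3 of 10 were above 0 (47.8% of all genes), and the median was -0.028 beside -0.0047 over all genes. Gfap had 4617 to 5580.5 normalized counts in KO and 4898 to 5857 in WT mice, and S100b had 3799.8 to 5347 and 3627 to 4968.

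Leaving out mice far from the rest lowers the spread, and the intervals were narrower without the replicate 5 mice. With them, the interval of Aqp4 ran from -0.59 to 0.45 and that of Slc1a2 from -0.37 to 0.27. Without them, with 4 mice per genotype, they shrank to -0.14 to 0.14 and -0.086 to 0.12. Aqp4 then had 4339.6 ± 350.0 normalized counts in KO and 4341 ± 311 in WT mice, and Gja1 had 5180.1 ± 149.6 and 5171 ± 283 (mean ± SD, n = 4). None of the 10 genes passed in that fit either, where 1 of 17650 genes (0.00567%) was called and 651 (3.69%) had an unadjusted p under 0.05. 6 of the 10 fold changes were then above 0 (49.8% of all genes), their groups overlapped for 10 of the 10 genes (2.12% of all genes had groups that did not). The choroid plexus and ependymal medians of KO over WT at 10 weeks were 0.18 and 0.17 with all mice and 0.28 and 0.19 without replicate 5, with none called in either fit. All 10 choroid plexus markers were above 0 in both fits. With all mice 0 of them had an unadjusted p under 0.05 (1.13% of all genes), and 3 did without replicate 5 (3.69%).

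**Figure D3:**
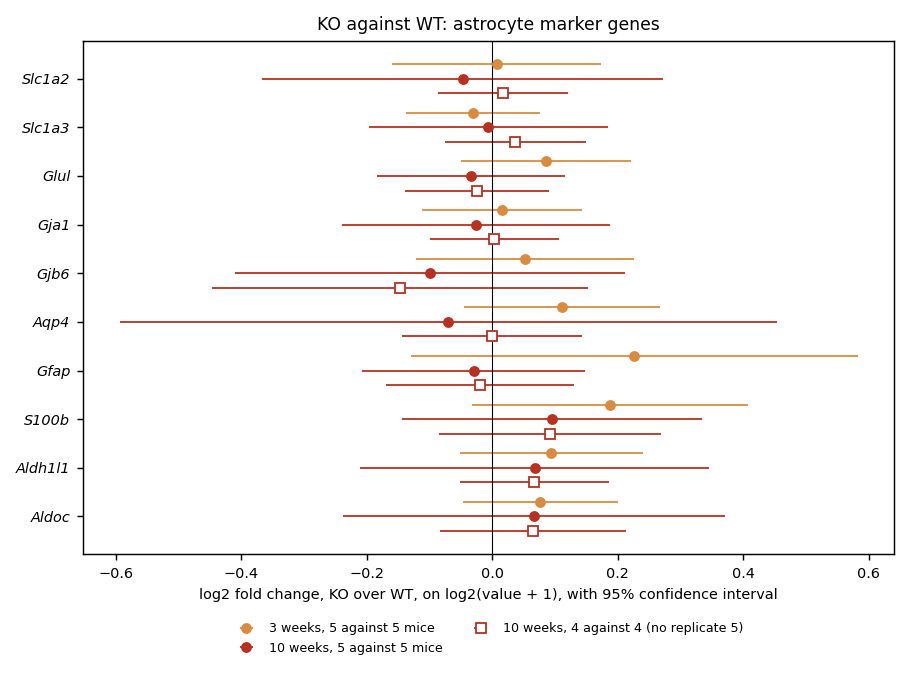
Log2 fold changes of KO over WT with 95% confidence intervals (horizontal axis) for each marker gene at 3 weeks, at 10 weeks with all mice, and at 10 weeks without replicate 5. Every interval includes 0, the widest being that of Aqp4 at 10 weeks with all mice. The points at 3 weeks, drawn with the replicate 3 mice included, lie above 0 for 9 of 10 genes.

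The age comparison asked how astrocyte genes differ between the juvenile and the adult brain. Most 3-week libraries had more estimated reads than any 10-week library. Age and this difference between the libraries cannot be told apart, and its part in the age values was not tested. With all mice, none of the 10 passed an adjusted p of 0.05 in WT mice, where 1643 of 17630 genes (9.32%) did, 4.62% higher and 4.7% lower, and none passed in KO mice, where 1467 of 17641 (8.32%) did, 3.78% higher and 4.53% lower. 3 of the 10 had an unadjusted p under 0.05 in WT mice (24.5% of all genes) and 1 in KO mice (22.7%). The median log2 fold change of the 10 genes was 0.025 in WT and -0.062 in KO mice, beside 0.0015 and -0.010 over all genes. Without the 10-week replicate 5 mice, 1 gene passed in WT mice (17.0% of all genes passed, 8.89% higher and 8.11% lower) and 2 in KO mice (21.3%, with 10.6% higher and 10.7% lower). Slc1a2 rose in both genotypes and Gjb6 fell in KO mice in that fit. At an unadjusted p under 0.05 there were 5 (31.4% of all genes) and 4 (34.1%). The genotype and age comparisons use the same mice and are not independent of each other.

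Slc1a2, which encodes the main glutamate transporter of the forebrain, had 51883, 52116, 42728, 51942 and 52340.2 normalized counts in WT mice of replicates 1 to 5 at 3 weeks. At 10 weeks WT mice had 60919, 60989.9, 58464, 61078 and 45782. 4 of the 5 older mice were above every young mouse, and the remaining one was replicate 5. In KO mice the values were 49894, 50201, 43498, 58256 and 50789 at 3 weeks and 64208, 64972, 56986, 58532 and 37098 at 10 weeks. The low values at each age were those of the 4 libraries set apart above, and the young KO replicate 4 lay within the range of the older mice other than replicate 5. With all mice the log2 fold change was 0.19 in WT (standard error 0.090, adjusted p = 0.213) and 0.14 in KO (0.14, adjusted p = 0.629, both from limma). Without replicate 5 of 10 weeks it was 0.27 (0.062, adjusted p = 0.0112) and 0.28 (0.073, adjusted p = 0.0172), a level 1.21 times that of 3 weeks in each genotype. These were the largest values of all alternatives. Leaving out the low 3-week replicate 3 mice as well gave 0.21 in WT and 0.23 in KO mice. With all mice and the trend on length and GC content subtracted, it was 0.18 in each genotype. Over the 23 alternatives the adjusted p ran from 0.00196 to 0.564 in WT and from 0.0171 to 0.846 in KO mice, with 4 under 0.05 in each genotype. Without replicate 5 the WT groups did not overlap (17.9% of all genes) and the KO groups did (20.7% of all genes had groups that did not). In all 4 the replicate 5 libraries were left out or corrected for transcript length and GC content.

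Slc1a3, the transporter that is the more prominent in the cerebellum, went the other way in its values. It had 15688 to 18009.5 normalized counts in WT mice at 3 weeks and 14198 to 16644 at 10 weeks, a log2 fold change of -0.15 (adjusted p = 0.162 from limma, exact permutation p = 0.0476). In KO mice it was -0.13 (adjusted p = 0.394). The groups overlapped in both genotypes. Without replicate 5 the value was -0.12 in WT (adjusted p = 0.143) and -0.056 in KO mice (adjusted p = 0.454).

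With all mice, Glul was the only one of the 10 genes whose ages did not overlap in WT mice. It had 34752, 38564, 38569, 33418 and 39446 normalized counts at 3 weeks and 42108, 40385, 40938, 41485 and 46234 at 10 weeks. No older WT mouse overlapped a young one. The means were 36949.7 ± 2681 and 42230.1 ± 2328 (± SD, n = 5), a log2 fold change of 0.19 (0.053 to 0.34). The adjusted p was 0.0836 (limma, over all genes) and the exact permutation p was 0.00794, the smallest that 5 against 5 mice allow, and 10.8% of all genes had groups that did not overlap. In KO mice the ages overlapped, with 36420.3 to 43062 and 37617 to 45354 normalized counts and a log2 fold change of 0.074 (-0.083 to 0.23). Without replicate 5 it was 0.16 in WT (adjusted p = 0.0645, ages still apart, as were those of Slc1a2) and 0.051 in KO mice (adjusted p = 0.629). The adjusted p of the WT difference fell under 0.05 in 3 of 23 alternatives and ran from 0.0179 to 0.212.

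Among the channel genes, Gjb6 had the largest age difference. Its connexin 30 appears later in development than connexin 43. KO mice had 2322, 2593, 2618, 2393 and 2522 normalized counts at 3 weeks and 1735, 2196, 1905, 1318 and 2239 at 10 weeks. All older KO mice, replicate 5 included, were below all young ones, and replicate 4 was the lowest. WT mice had 1958, 2762, 2544, 2552 and 2255 at 3 weeks and 1905, 1823, 2373, 1748 and 2096 at 10 weeks. The ranges overlapped: the older replicates 3 and 5 were above the lowest young mouse, and the young replicates 1 and 5 were below the highest older mouse.

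In KO mice the log2 fold change of Gjb6 was -0.43 (-0.70 to -0.16, limma adjusted p = 0.0558, exact permutation p = 0.00794), and 10.9% of all genes had KO groups that did not overlap. In WT mice it was -0.28 (-0.50 to -0.054, adjusted p = 0.116). Without replicate 5 it was -0.50 in KO mice (adjusted p = 0.0076) and -0.30 in WT mice (adjusted p = 0.07). The KO value passed in 7 of 23 alternatives, with adjusted p from 0.0076 to 0.124, and the WT value in none (0.0539 to 0.247). Endothelial markers, of another cell type at the vessel wall, were lower at 10 weeks in 3 of 12 genes in WT and 2 of 12 in KO mice (4.7% and 4.53% of all genes were lower), and in 6 and 5, with 1 higher in KO mice, without replicate 5 (8.11% and 10.7%), with summed levels of 6747 to 9448 at 3 weeks and 6572 to 7567 at 10 weeks in KO mice. Their part in the Gjb6 value was not tested. In bulk tissue, fewer cells of a type and less RNA per cell cannot be told apart for any of these genes.

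Its partner Gja1 had 5050.4 ± 361 normalized counts in WT mice at 3 weeks and 5001 ± 452 at 10 weeks, and 5103 ± 335 and 4927 ± 581 in KO mice (mean ± SD, n = 5). The log2 fold changes were -0.016 (-0.18 to 0.15) and -0.057 (-0.25 to 0.14), and 0.035 and 0.024 without replicate 5, so that the sign depended on those mice.

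Aqp4 turned in large part on a pair of libraries. It had 4626, 3989, 4198, 4580.4 and 5063 normalized counts at 3 weeks and 4571, 4561, 4324, 3907 and 2494 at 10 weeks in WT mice. In KO mice it had 5049, 5049, 5339, 4396 and 4421 at 3 weeks and 4119, 4848, 4099.9, 4291 and 1961 at 10 weeks. The lowest value of each older group was replicate 5. Of the other 4 older KO mice, 3 were also below every young KO mouse. In WT mice this held for 1 of 4. The rest lay within the young range. The log2 fold change was -0.21 in WT and -0.39 in KO mice with all mice (adjusted p = 0.414 and 0.275, limma), and -0.047 and -0.16 without replicate 5 (adjusted p = 0.696 and 0.125).

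The filament and calcium-binding genes did not pass in either genotype. Gfap had log2 fold changes of 0.066 (-0.14 to 0.27) in WT and -0.19 (-0.55 to 0.17) in KO mice, the latter with the 1 high young KO mouse. Without the replicate 3 mice of 3 weeks the KO value of Gfap was -0.019. S100b had 0.15 (-0.066 to 0.37) and 0.058 (-0.19 to 0.30). Without replicate 5 of 10 weeks, Gfap was at 0.031 in WT and -0.21 in KO mice, and S100b at 0.090 and -0.0055. The enzymes Aldh1l1 and Aldoc had -0.040 and 0.10 in WT mice and -0.066 and 0.093 in KO mice with all mice, and -0.13 and 0.0015 in WT and -0.16 and -0.011 in KO mice without replicate 5.

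**Figure D4:**
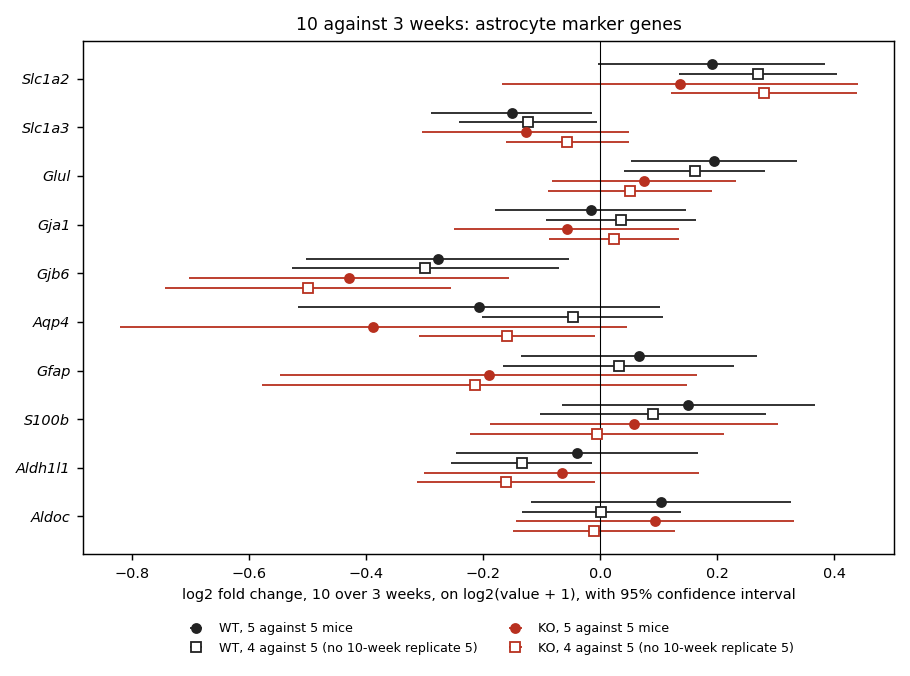
Log2 fold changes of 10 over 3 weeks with 95% confidence intervals (horizontal axis) for each marker gene in WT (black) and KO mice (red), with all mice as filled circles and without the 10-week replicate 5 mice as open squares. Slc1a2 lies above 0 in all 4 fits, with intervals that clear 0 once replicate 5 is left out, and Gjb6 lies below 0 in all 4.

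Whether the age difference depended on the genotype was tested by the age by genotype interaction over all 20 mice. None of the 10 genes passed and 0 of 17637 genes were called (0.0%), with 296 genes (1.68%), none of the 10 among them, at an unadjusted p under 0.05. The largest interaction values on the log2 scale were those of Gfap, -0.26 (-0.67 to 0.16), Aqp4, -0.18 (-0.74 to 0.37), and Gjb6, -0.15 (-0.51 to 0.21). The Gfap value rested on the high young KO mouse and was -0.085 without it. The difference of Gjb6 in KO mice and that in WT mice are thus not shown to differ. The same holds for Glul, with an interaction of -0.12 (-0.32 to 0.077). 9 of the 10 interaction values were below 0 (46.9% of all genes were above 0). Without the replicate 5 mice none of the 10 and 0 of 17652 genes were called, with 670 (3.8%) at an unadjusted p under 0.05. All of the 10 share the same 20 libraries.

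The 250 bases before the start site are shown for Glul and Gjb6, the 2 genes whose groups at the ages did not overlap in one genotype, where factors of the NFI and basic helix-loop-helix families, which act in glial development, could bind. Sequences are from RefSeq on GRCm38.p6, 5′ to 3′ on the strand of the gene. Capitals mark the NFI half-site TTGGC and the E-box CANNTG on either strand. The Glul window is chr1:153899679-153899928 on the plus strand, opposite an exon of a retained-intron transcript of Teddm2, and the Gjb6 window is chr14:57133612-57133861 on the minus strand.
Glul: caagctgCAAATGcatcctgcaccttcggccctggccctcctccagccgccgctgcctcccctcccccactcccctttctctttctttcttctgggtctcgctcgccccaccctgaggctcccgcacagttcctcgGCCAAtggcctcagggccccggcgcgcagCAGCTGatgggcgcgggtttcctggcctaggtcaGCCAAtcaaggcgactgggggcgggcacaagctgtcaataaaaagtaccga
Gjb6: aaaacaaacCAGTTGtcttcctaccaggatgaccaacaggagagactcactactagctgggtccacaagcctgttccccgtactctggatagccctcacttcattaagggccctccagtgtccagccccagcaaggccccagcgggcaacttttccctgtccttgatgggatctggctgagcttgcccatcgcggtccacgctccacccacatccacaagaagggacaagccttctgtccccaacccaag
Glul held 2 NFI half-sites and 2 E-boxes and had a GC content of 64.8%. Gjb6 held 1 E-box, no NFI half-site and 56.8% GC, and the median over all promoters was 52.4%. Promoters of 9 of the 10 genes were in the RefSeq table, in 10 windows because Aldoc has 2. An NFI half-site was in 4 of the 10 windows (41.5% of 32851 promoters of all genes), an E-box in 7 (66.2%), the STAT letters TTCNNNGAA in 2 (7.02%), the SOX letters ACAAAG in none (16.5%) and the TATA letters TATAAA in 1 (12.4%). Matches are letters only, with no measurement of binding here.

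The 10 genes did not vary as 1 unit between mice of a group. Deviations of the log2 values from the group mean were correlated over the 45 pairs of genes. Over all 20 mice Pearson's r ran from -0.85 to 0.89 with a median of 0.028 and 23 of 45 pairs above 0, and over the 18 mice without the 10-week replicate 5 mice from -0.62 to 0.87 with a median of 0.47 and 38 of 45 pairs above 0. 19 and 14 of the 45 pairs had an adjusted p under 0.05 (permutation within groups, Benjamini-Hochberg over the 45 pairs). All genes of a mouse come from 1 library. The 18 mice still include the 3-week replicate 3 mice, whose values also followed transcript length. Their longest minus shortest quintile was -0.292 in KO and -0.339 in WT. No correlation is given with both of them left out.

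Gfap and S100b were the closest pair of the 18 mice, with r = 0.87 (permutation p = 4e-05, adjusted p = 0.0018) and rho = 0.88 (permutation p = 3e-05, adjusted p = 0.00135). It was 0.79 without the 2 mice farthest from the Gfap median. The 18 mice include KO replicate 3 of 3 weeks, which had the highest values of both genes (9561 and 5487 normalized counts). Gfap also went with Aldh1l1 at r = 0.80 (rho = 0.82, permutation p = 0.00235 and 0.00041, adjusted p = 0.0132 and 0.00461, and 0.79 without the 2 farthest mice). Gja1 went with Aldoc at r = 0.78 (rho = 0.79, permutation p = 0.00025 and 0.00012, adjusted p = 0.00281 and 0.0027, and 0.73 without the 2 farthest mice). That last relation rested on leaving out the 10-week replicate 5 mice: over all 20 mice it was -0.43 (rho = 0.12, permutation p = 0.13 and 0.647, adjusted p = 0.209 and 0.767, and 0.43 without the 2 farthest mice).

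Slc1a2 had the lowest r with the mean of the 10 genes, -0.11 over 18 mice and -0.052 over 20. Aldoc, Glul and Gja1 had 0.90, 0.82 and 0.82 over 18 mice and 0.46, 0.77 and 0.50 over 20. Each gene is itself part of that mean, which raises its r. Over 20 mice Slc1a2 went with the other glutamate transporter and against Aldh1l1. Its correlation with Slc1a3 was 0.83 over 20 mice (rho = 0.70, permutation p = 0.00095 and 0.00214, adjusted p = 0.00285 and 0.00752, and 0.63 without the 2 farthest mice) and 0.55 over 18 mice (rho = 0.51, permutation p = 0.0268 and 0.0362, adjusted p = 0.0636 and 0.0857, and 0.38 without the 2 farthest mice). With Aldh1l1 it was -0.85 over 20 mice (rho = -0.71, permutation p = 0.00164 and 0.0037, adjusted p = 0.00461 and 0.0111, and -0.62 without the 2 farthest mice) and -0.52 over 18 mice (rho = -0.35, permutation p = 0.09 and 0.222, adjusted p = 0.156 and 0.333, and -0.43 without the 2 farthest mice). With Gja1 it was 0.73 over 20 mice (rho = 0.56, permutation p = 0.0125 and 0.0179, adjusted p = 0.0312 and 0.0473, and 0.32 without the 2 farthest mice) and 0.14 over 18 mice (rho = 0.22, permutation p = 0.632 and 0.395, adjusted p = 0.749 and 0.539, and 0.22 without the 2 farthest mice), and with Aqp4 0.79 over 20 mice (rho = 0.52, permutation p = 0.0245 and 0.0497, adjusted p = 0.0551 and 0.118, and 0.29 without the 2 farthest mice) and -0.09 over 18 mice (rho = -0.02, permutation p = 0.773 and 0.932, adjusted p = 0.809 and 0.975, and -0.06 without the 2 farthest mice). None of these 4 relations had an adjusted p under 0.05 over 18 mice. Outside the 10 genes, those whose deviations were most like the mean of the 10 over 20 mice were Cyp2j9 (r = 0.88), Rhoa (0.86), Nfe2l2 (0.84), Selenop (0.83), Kctd14 (0.83), Fkbp9, Ddah1, Naaa, Dbi and Zcchc24 (0.82 each). These values are descriptions over the same 20 libraries.

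Other genes of astrocytes were set beside the 10, first with all mice. Values in brackets are log2 fold changes of 10 over 3 weeks with limma's adjusted p. Counts in each list are to be read against all genes, of which 4.62% rose and 4.7% fell in WT and 3.78% rose and 4.53% fell in KO mice with all mice, and 8.89%, 8.11%, 10.6% and 10.7% did so without replicate 5. Of 36 further genes enriched in astrocytes, 4 rose and 2 fell in WT mice (median 0.15) and 5 rose and 2 fell in KO mice (median 0.10). The membrane protein gene Ttyh1 fell in WT (-0.31, adjusted p = 0.00819) and KO mice (-0.27, adjusted p = 0.0119), and Slco1c1, a thyroxine transporter, fell in WT mice (-0.42, adjusted p = 0.00907). Paqr6 rose in WT mice (0.51, adjusted p = 0.0227), and Mfge8 (0.47, adjusted p = 0.000921), a secreted factor that tags cells for engulfment, and the phosphorylase kinase subunit Phkg1 (0.41, adjusted p = 0.0128) rose in KO mice. Without replicate 5, 4 rose and 4 fell in WT and 9 rose and 6 fell in KO mice, among them the metallothionein Mt2 in KO (-1.25, adjusted p = 0.000236) and the angiotensinogen gene Agt in WT mice (-0.42, adjusted p = 0.00493).

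Of 14 genes of glutamate, GABA and ion handling, the neighbours of Slc1a2, Slc1a3 and Glul in function, 1 fell in WT (all genes 4.7%) and 3 fell in KO mice (4.53%). The lactate transporter Slc16a1 fell in both (WT -0.62, adjusted p = 0.0015, KO -0.47, adjusted p = 0.0348). The potassium channel Kcnj10 (-0.28, adjusted p = 0.0331) and the glucose transporter Slc2a1 (-0.55, adjusted p = 0.0459) fell in KO mice, and Slc16a1 and Slc2a1 are also expressed by endothelial cells. Without replicate 5, 1 rose and 1 fell in WT and 1 rose and 3 fell in KO mice, and the gene that rose in both was the cystine and glutamate exchanger Slc7a11 (WT 0.39, adjusted p = 0.0354, KO 0.65, adjusted p = 6.97e-06).

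Of 14 genes of the endfoot and dystroglycan complex, which anchors Aqp4 at the vessel, 1 fell in WT (all genes 4.7%) and 3 fell in KO mice (4.53%). The sarcoglycan Sgcb fell in both (WT -0.32, adjusted p = 0.0164, KO -0.32, adjusted p = 0.0141), and Dag1, dystroglycan itself (-0.32, adjusted p = 0.0301), and the laminin Lama2 (-0.37, adjusted p = 0.0335) fell in KO mice. Without replicate 5, 1 rose and 1 fell in WT and 2 rose and 3 fell in KO mice, with the dystrophin gene Dmd higher in WT (0.41, adjusted p = 0.00534) and dystrobrevin Dtna higher in KO mice (0.19, adjusted p = 0.00783).

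Of 12 genes through which astrocytes act on synapses, which are secreted or surface-bound factors and the phagocytic receptors Megf10 and Mertk, 1 rose and 2 fell in WT (9.32% of all genes passed) and 2 fell in KO mice (8.32%). Sparc, an antagonist of synapse formation, fell in both (WT -0.60, adjusted p = 0.00446, KO -0.67, adjusted p = 0.00404), as did the thrombospondin Thbs1 (WT -0.59, adjusted p = 0.0361, KO -0.60, adjusted p = 0.0392), and Megf10 rose in WT mice (0.40, adjusted p = 0.0169). Without replicate 5, 1 rose and 3 fell in WT and 1 rose and 4 fell in KO mice, where Megf10 rose too (0.38, adjusted p = 0.000637).

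The remaining lists followed states and places of astrocytes. Of 14 genes of immature astrocytes and radial glia, the lipid-binding protein gene Fabp7 alone passed, and it fell in both genotypes (WT -1.11, adjusted p = 0.00283, KO -0.87, adjusted p = 0.00342). Without replicate 5, 1 rose and 3 fell in WT and 2 rose and 1 fell in KO mice. Of 20 reactive astrocyte genes tested, of 22, the heat shock protein gene Hspb1 rose in both (WT 1.22, adjusted p = 0.0074, KO 1.03, adjusted p = 0.00207) and the complement gene C4b in WT mice (0.53, adjusted p = 0.0453). Without replicate 5, 2 rose and 1 fell in WT and 3 rose in KO mice. Of 7 genes of Bergmann glia, the astrocytes of the cerebellar cortex, Gdf10 fell (WT -0.44, adjusted p = 0.00751, KO -0.69, adjusted p = 0.000558) and the transcription factor Etv5 rose in both genotypes (WT 0.37, adjusted p = 0.0102, KO 0.45, adjusted p = 0.00389). Without replicate 5, 1 rose and 1 fell in WT and 2 rose and 1 fell in KO mice. No gene of these 7 astrocyte lists was called in KO against WT mice at either age or in the interaction, with or without replicate 5.

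Lists of other cells were read for the genes they share with the 10. Of 12 oligodendrocyte markers, 10 fell in WT (median -1.08) and 11 in KO mice (median -1.25), with the same counts without replicate 5. Their summed normalized counts were 412139 to 464229 at 3 weeks and 176347 to 200859 at 10 weeks in WT mice and 412079 to 603604 and 159307 to 209191 in KO mice. Glul and S100b, which oligodendrocytes also express, had values above 0 over the same interval in both genotypes with all mice, and the part of oligodendrocytes in them was not tested. Of 8 oligodendrocyte precursor markers 6 fell in each genotype, and 6 in WT and 7 in KO mice without replicate 5.

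With all mice, none of the 12 ependymal markers tested passed with age in either genotype, with medians of 0.27 in WT and 0.20 in KO mice. Without replicate 5, Mia fell in WT (-0.80, adjusted p = 0.0247) and Dnah11 rose in KO mice (0.31, adjusted p = 0.0336), with medians of 0.14 and 0.13. Of 10 choroid plexus markers 2 rose in WT and none passed in KO mice with all mice (4.62% and 3.78% of all genes rose), and 3 rose in WT and 2 rose in KO mice without replicate 5 (8.89% and 10.6%). Neuron markers summed to 253655 to 258055 at 3 weeks and 258814 to 270263 at 10 weeks in WT mice. Of 14, 1 rose and 2 fell in WT and 1 rose and 1 fell in KO mice with all mice, and 2 rose and 3 fell and 2 rose and 5 fell without replicate 5. No microglia marker of 12 was called in either genotype in either fit. No marker of these lists was at 0 in any mouse.

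**Figure D5:**
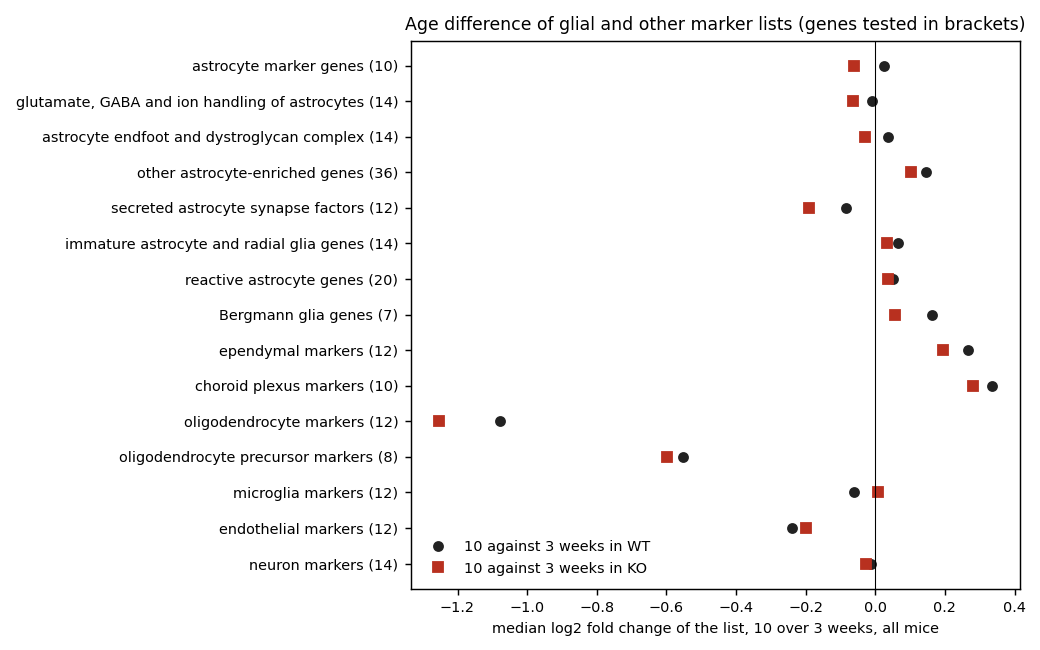
Median log2 fold change of 10 over 3 weeks (horizontal axis, all mice) of the 10 marker genes and 14 other lists, in WT (circles) and KO mice (squares), with the number of genes tested in brackets, where the list of secreted synapse factors also holds the receptors Megf10 and Mertk. The 10 marker genes lie at 0.025 and -0.062, and the oligodendrocyte markers lie lowest at -1.08 and -1.25.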

How the data were processed

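Poly-A RNA of whole brains from 20 mice (5 per group) had been sequenced in pairs of 100-base reads. Per the labels and the methods, the authors estimated transcript abundance with Salmon 1.1.0 on GRCm38 with GC bias correction and normalized gene counts by DESeq2 size factors, and the submitters' processing notes give DESeq2 1.26.0 and R 3.6.2. The deposited signal values are these normalized counts, not raw counts. Low values repeat at a step that gives an approximate depth, but whole reads were not recovered for nearly all genes, and limma took the place of a count test. Lengths and coordinates came from GENCODE M21.

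Values were analysed as log2(value + 1) with limma 3.58.1 in R 4.3.3 (eBayes, with a trend on mean level), leaving out genes whose mean was under 10 in the mice fitted, with Benjamini-Hochberg adjustment over all genes tested and a threshold of 0.05. The fold changes are on that scale. Each genotype comparison used the 10 mice of 1 age, each age comparison the 10 mice of 1 genotype, and the interaction all 20. The fit was tested on simulated data. Single genes were also tested by exact two-sided permutation, and correlations by 100000 permutations within groups. A column of deposited values was matched to its mouse by the sample title.

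The genes named are all 10 markers, Katnal2, up to 3 genes of each further list with the smallest p, and the 10 genes most correlated with the mean of the markers. 1 gene that this rule picks is not reported here. Members and lists were chosen with earlier results of these data known. Alternatives were other pseudocounts, filters, scalings, thresholds, a single fit, a replicate block and each mouse left out. Leaving out the 3-week replicate 3 mice, alone or with the 10-week replicate 5 mice, and subtracting each mouse's trend on length and GC content were chosen after seeing the data.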

Additional observations from a re-analysis of the deposited data

Results flagged for a closer look

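In 7 of the 40 groups of 5 mice formed by the 10 marker genes and 4 groups, 1 mouse lay so far from the rest that its gap to the nearest mouse was over 0.71 of the whole range. Chance flags about 1 in 20 groups. 6 of the 7 were 10-week replicate 5 mice. Slc1a2 was low at 37098 normalized counts in KO replicate 5 and 45782 in WT replicate 5, and Aqp4 (1961) and Gja1 (3915) were low in KO replicate 5. Aldh1l1 was high at 2420.5 in KO replicate 5 and 2307 in WT replicate 5. The last was Slc1a2 in WT replicate 3 of 3 weeks, low at 42728, a mouse whose values also followed transcript length.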

How the results depend on the processing

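The main limit is the 4 libraries whose values followed transcript length. The 10 genes had high counts in every mouse, but with 5 mice per group most intervals span about 0.3 on the log2 scale or more. Of the 1200 recomputed fold changes of the 10 genes, unadjusted thresholds aside, 1113 kept their direction and side of the threshold, 19 passed it and 68 changed sign.

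In WT mice the number of the 10 genes called with age was 1 with quantile normalization (Glul, adjusted p = 0.041), 3 at an unadjusted p, 1 without the 10-week replicate 5 mice (Slc1a2), 3 when the 3-week replicate 3 mice were left out too (Slc1a2, Glul and Slc1a3), and 2 with the length and GC trend subtracted (Slc1a2 and Glul). Over all genes the last 3 gave 3000, 2850 and 3069, and the unadjusted threshold 4315. In KO mice it was 1 with quantile normalization, 1 in a single fit of all mice and 1 at an unadjusted p (Gjb6 each time), and 2 in each of the last 3 (Gjb6 and Slc1a2), with 3759, 3811 and 3151 genes, and 4008 at an unadjusted p. The unadjusted threshold gave 429, 199 and 296 genes for the genotype at 3 and 10 weeks and the interaction. 1 gene was called for the genotype at 3 weeks without replicate 3, and 1 at 10 weeks without replicate 5.

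Leaving out each mouse in turn gave 0 to 2 of the 10 genes and 896 to 3759 genes in KO mice with age, 0 to 1 and 912 to 3000 in WT mice, 0 to 1 genes for the genotype at 3 weeks (1 without KO replicate 4 or WT replicate 3) and 0 to 0 for the 10 genes there, at 10 weeks and in the interaction. The single mice behind these changes were WT replicate 5 (10 weeks) for Slc1a2, KO replicate 5 for Slc1a2 and Gjb6, and KO replicate 2 of 10 weeks for Gjb6 (adjusted p = 0.0433). Over all genes, WT replicate 4 of 3 weeks gave 912, and KO replicates 1, 2 and 4 of 3 weeks gave 943, 957 and 896.

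Replicate numbers were not taken to pair the mice, which were separate animals and whose titles state no pairing. Whether mice of the same number were handled together is not known. Correlations of same-numbered deviations ran from -0.009 to 0.26 at 3 weeks, 0.075 to 0.71 at 10 weeks, -0.10 to 0.16 in WT and -0.12 to 0.16 in KO mice with age, and 3, 2, 2 and 1 of 5 mice correlated best with their own number at 10 weeks, at 3 weeks, in WT and in KO mice. The 0.71 was that of the replicate 5 mice, and the other 10-week pairs went from 0.075 to 0.17. With the replicate block, 0 of the 10 genes were called in any of the 5 comparisons, and 0, 0, 1265, 913 and 0 genes overall. At an unadjusted limma p under 0.05, the block gave 1 of the 10 and 732 of 17610 genes for the genotype at 3 weeks. At 10 weeks it gave 0 of the 10 and 610 of 17613 genes.

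Signs changed as follows. Without the 10-week replicate 5 mice, the genotype value at 10 weeks became 0.017 for Slc1a2, 0.037 for Slc1a3 and 0.0036 for Gja1, the age value 0.035 for Gja1 in WT and 0.024 for Gja1, -0.011 for Aldoc and -0.0055 for S100b in KO mice, and the interaction 0.0097 for Slc1a2. Without the 3-week replicate 3 mice, Gja1 became -0.046 for the genotype at 3 weeks and 0.021 in the interaction, and Aldoc 0.021 in the interaction. Without both, Gja1 became 0.0045 (WT), 0.054 (KO) and 0.050 (interaction), Slc1a2 0.014 and Aldoc 0.020. With the trend subtracted, Slc1a2 became 0.0038 and Slc1a3 0.015 for the genotype at 10 weeks, Gja1 0.035 (WT) and 0.010 (KO), and Slc1a2 0.0020 and Aldoc 0.0056 in the interaction. Quantile normalization gave Aldoc 0.0055 there.

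When single mice were left out, the genotype value at 3 weeks ran over -0.015 to 0.048 for Gja1, -0.050 to 0.060 for Slc1a2 and -0.020 to 0.10 for Gjb6. At 10 weeks it ran over -0.059 to 0.014 for Gfap, -0.17 to 0.023 for Gjb6, -0.13 to 0.097 for Slc1a2, -0.048 to 0.065 for Slc1a3, -0.038 to 0.17 for Aldoc, -0.23 to 0.16 for Aqp4, -0.028 to 0.16 for Aldh1l1 and -0.077 to 0.055 for Gja1. The age value ran over -0.056 to 0.035 for Gja1 in WT mice, and -0.0055 to 0.14 for S100b, -0.011 to 0.14 for Aldoc and -0.092 to 0.024 for Gja1 in KO mice. The interaction ran over -0.11 to 0.092 for Aldoc, -0.12 to 0.068 for Aldh1l1, -0.018 to 0.095 for Slc1a3, -0.13 to 0.089 for Slc1a2, -0.34 to 0.047 for Aqp4 and -0.093 to 0.040 for Gja1. The cause of these changes was not tested.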
